A study of Mus musculus with 49 samples.

Results

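Hippocampi of newborn mice without the 3 endophilin A genes were compared with hippocampi of separate newborn wild types. The comparison takes 17 of the 49 RNA samples of the study, chosen by their labels: 9 triple-knockout samples (TKO, labelled as lacking endophilin A1, A2 and A3) and 8 wild-type control samples (WT-TKO), all labelled postnatal day 0 and untreated. A further 8 samples labelled littermate controls of the TKO line (KOWTKO, postnatal day 0) were set beside them, and 7 double knockouts of endophilin A1 and A2 (DKO) with 10 wild types (WT-DKO), labelled postnatal day 13 to 21 although their growth protocol also reads newborn, served for a comparison across ages. The labels do not spell out the alleles of KOWTKO. The study sequenced polyadenylated RNA and addressed what endophilin A deficiency does to gene expression in the hippocampus. The labels give no strain, sex, litter or animal number for any group, so the p-values rest on the scatter among libraries, part of which may be technical. RNA was extracted with either of a pair of kits, and the labels do not say which kit served which library. The WT-TKO samples are labelled wild type controls and not littermates, so loss of endophilin A and descent from the TKO line cannot be told apart in this comparison.

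Endophilin A proteins carry a membrane-bending BAR domain and an SH3 domain, bind dynamin and synaptojanin, and act where vesicles pinch off and shed their clathrin coat. Endophilin A1 (Sh3gl2) is mainly a brain protein, endophilin A2 (Sh3gl1) is made in most tissues, and endophilin A3 (Sh3gl3) is found mainly in brain and testis. At synapses they serve the recycling of synaptic vesicles, and they also take part in the uptake of activated receptors. Fbxo32 (atrogin-1), a muscle-wasting ubiquitin ligase and a target of the transcription factor FoxO3, has been tied to loss of endophilin A in mouse brain.

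Reads on genes numbered 14.7 M to 36.0 M per TKO library, 16.2 M to 31.2 M per KOWTKO library and 13.1 M to 35.0 M per WT-TKO library. Genes that mark hippocampal neurons were read in all 25 newborn libraries, with Neurod6 at 447.7 to 719 CPM in TKO, 419.7 to 596 CPM in KOWTKO and 498.5 to 603 CPM in WT-TKO. Other markers were less even between libraries. Zbtb20 had 205.5 to 621 CPM in TKO, 271.8 to 489 CPM in KOWTKO and 105.8 to 432 CPM in WT-TKO. Prox1 had 77.5 to 145 CPM in TKO, 95.1 to 129 CPM in KOWTKO and 68.7 to 147 CPM in WT-TKO. CPM stands for a gene's reads in every M of its library's scaled total, with no correction for gene length. Y-linked genes were read in 5 of 9 TKO, 5 of 8 KOWTKO and 4 of 8 WT-TKO libraries. The WT-TKO libraries were the more uneven group. WT-TKO replicate 8 was highest in myelin genes, replicate 7 in choroid plexus genes, and replicates 1, 4 and 8 in meningeal genes. Replicates 5 and 6 stood apart from the other 6 in single genes such as Vcp-rs (67.5 and 66.5 CPM) and Gm6166 (34.7 and 34.9 CPM). Counts and values of TKO against WT-TKO were taken again without replicates 1, 4, 7 and 8 and without replicates 5 and 6, alternatives chosen after seeing the data, and are given where a call was lost or a count of 3 or more moved by over 1.5 times. KOWTKO replicate 7 had the most alignments to more than 1 place (86.8 per 100 reads on genes, against 54.2 to 65.7 in TKO and 54.8 to 65.0 in WT-TKO). The kit did not mark strand, so reads over exons of overlapping or antisense genes cannot be told apart. Of the 121 genes named below, 40 share exon positions with another annotated gene, among them Sh3gl1 with Mpnd, Lxn with Gfm1, Islr with Islr2, Pltp with Ctsa, Gpr17 with Lims2, Egfl7 with Agpat2, Syn2 with Timp4, Tm7sf2 with Vps51, Cntnap1 with Plekhh3, Cd72 with Tesk1 and Emx2os with Emx2, and Fbxo32 with Gm15943.

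The targeted genes were examined first, and they differed between TKO and WT-TKO in every library. In what follows 3 values of a group are its lowest, median and highest library in CPM. Sh3gl1 (ENSMUSG00000003200, chr17:56016750-56036635 in mm10) measured 0.472, 0.808 and 1.35 in TKO, 35, 73.7 and 85.2 in KOWTKO and 64.6, 68.1 and 78.2 in WT-TKO. Sh3gl2 (ENSMUSG00000028488, chr4:85205126-85639195) measured 11.3, 22.3 and 28.5 in TKO, 10.9, 19.8 and 26.6 in KOWTKO and 163, 202 and 239 in WT-TKO. Sh3gl3 (ENSMUSG00000030638, chr7:82173840-82307419) measured 0.0676, 0.241 and 0.436 in TKO, 0.0451, 0.229 and 0.497 in KOWTKO and 55.1, 60.3 and 65.4 in WT-TKO. All 3 genes were thus below every WT-TKO library in 9 of 9 TKO libraries, whereas the libraries labelled KOWTKO shared the low Sh3gl2 and Sh3gl3 and kept Sh3gl1. The log2 fold changes of TKO over WT-TKO were -6.32 ± 0.16 for Sh3gl1, -3.36 ± 0.21 for Sh3gl2 and -7.86 ± 0.16 for Sh3gl3 (SE; edgeR quasi-likelihood adjusted p = 1.74e-21, 8.29e-11 and 1.98e-24). KOWTKO replicate 3, with the lowest Sh3gl1 of its group, stood at 35 CPM, and the next lowest KOWTKO library, replicate 8, at 66.5 CPM. Of the 2 endophilin B genes, Sh3glb2 fell slightly, with 95.8, 109.5 and 121 CPM in TKO, 106, 111 and 137 CPM in KOWTKO and 121, 126 and 131 CPM in WT-TKO (log2 fold change over WT-TKO -0.20 ± 0.05, edgeR adjusted p = 0.00955), and this call was lost without WT-TKO replicates 1, 4, 7 and 8. In the endophilin family 4 of 5 genes thus fell and 0 rose. As 3 of those that fell are the targeted genes, this count was largely set by the genotype.

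**Figure D1:**
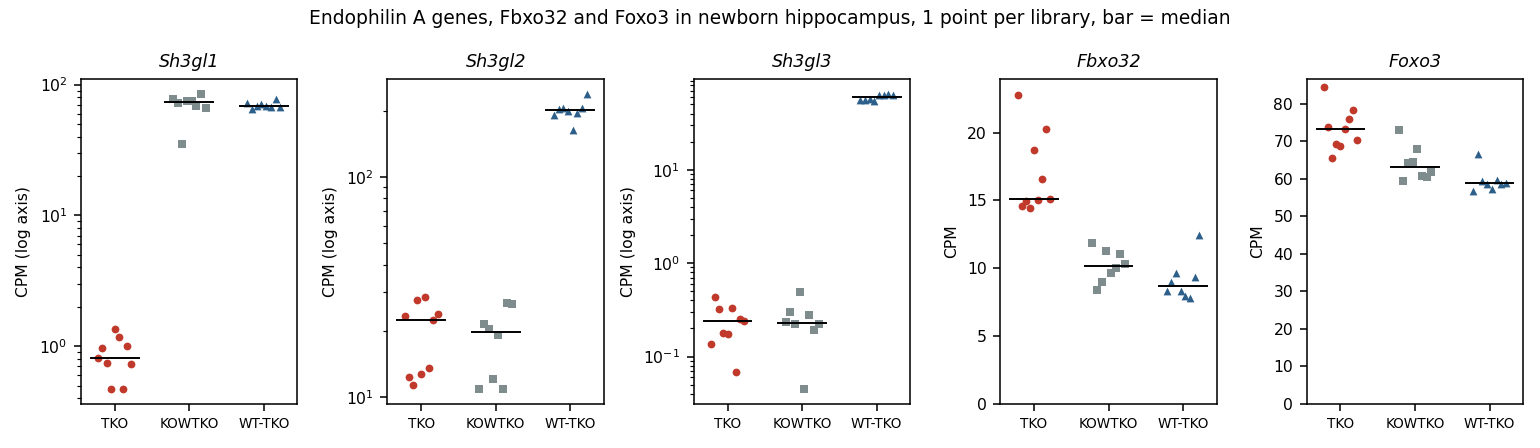
CPM of Sh3gl1, Sh3gl2 and Sh3gl3 (log axes) and of Fbxo32 and Foxo3 (linear axes) in TKO (n = 9), KOWTKO (n = 8) and WT-TKO (n = 8), with 1 point per library and a bar at the group's median. TKO and KOWTKO share low Sh3gl2 and Sh3gl3, Sh3gl1 is low in TKO, and the Fbxo32 points of TKO, from 14.4 to 22.8 CPM, lie above all KOWTKO and WT-TKO points.

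Genes beside the targeted loci were among those that changed. TKO against WT-TKO called 3595 of 15715 genes tested (22.9%) at an adjusted p under 0.05, and within 5 Mb of the 3 targeted genes it called 57 of 179 (31.8%, a difference in share that was not tested), of which 24 rose and 33 fell. Beside Sh3gl1, Mpnd, a gene for a deubiquitinase-like MPN-domain protein, had 14.5, 19.1 and 22.9 CPM in TKO, 52.1, 94.1 and 104 CPM in KOWTKO and 86.9, 91.2 and 105 CPM in WT-TKO. Its annotated exons overlap those of Sh3gl1, and it fell by 2.31 ± 0.10 on the log2 scale (edgeR adjusted p = 4.80e-16). The lowest Mpnd of KOWTKO, 52.1 CPM, was in replicate 3, the KOWTKO library that was also lowest in Sh3gl1. Beside Sh3gl2, Acer2, which encodes a Golgi ceramidase, had 4.98, 8.55 and 12.9 CPM in TKO, 2.75, 3.83 and 4.74 CPM in KOWTKO and 1.82, 2.11 and 3.41 CPM in WT-TKO. The TKO libraries lay above all libraries of both control groups, with log2 fold changes of 1.90 ± 0.17 over WT-TKO and 1.24 ± 0.16 over KOWTKO (edgeR adjusted p = 6.31e-09 and 2.49e-05). Beside Sh3gl3, Arnt2, a bHLH-PAS partner of other transcription factors, rose over WT-TKO (0.33 ± 0.05, edgeR adjusted p = 1.33e-04), with 598, 659 and 764 CPM in TKO, 604, 682 and 710.1 CPM in KOWTKO and 510.0, 541 and 613 CPM in WT-TKO. The Arnt2 ranges overlapped, with 8 of 9 TKO libraries above all WT-TKO libraries. Linked DNA of the line that was targeted and loss of the gene itself cannot be told apart for these neighbours.

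Over all genes tested, 1704 rose in TKO (10.8%) and 1891 fell (12.0%), and most changes were small. The median size of the called changes was 0.32 on the log2 scale, the median log2 fold change of all genes tested was -0.0032, and 234 genes (1.49%) were called and at least 2-fold apart, of which 67 rose and 167 fell. For 264 genes (1.68%) the TKO and WT-TKO libraries did not overlap. Against KOWTKO, the same TKO libraries differed in 800 genes (5.09%), with 379 higher (2.41%) and 421 lower (2.68%), and KOWTKO against WT-TKO in 3288 (20.9%), with 10.5% of all genes higher and 10.5% lower. These 3 comparisons share libraries, so values are set side by side. The counts of gene lists below are to be read against these shares of all genes. The TKO against KOWTKO contrast is also the test of whether a gene's shift from wild type differed between TKO and their littermates. Its count moved with single libraries, to 330 without KOWTKO replicate 5 and to 1444 without KOWTKO replicate 7, and it lay at 425 to 484 without KOWTKO replicate 1, 2 or 3 or TKO replicate 8.

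**Figure D2:**
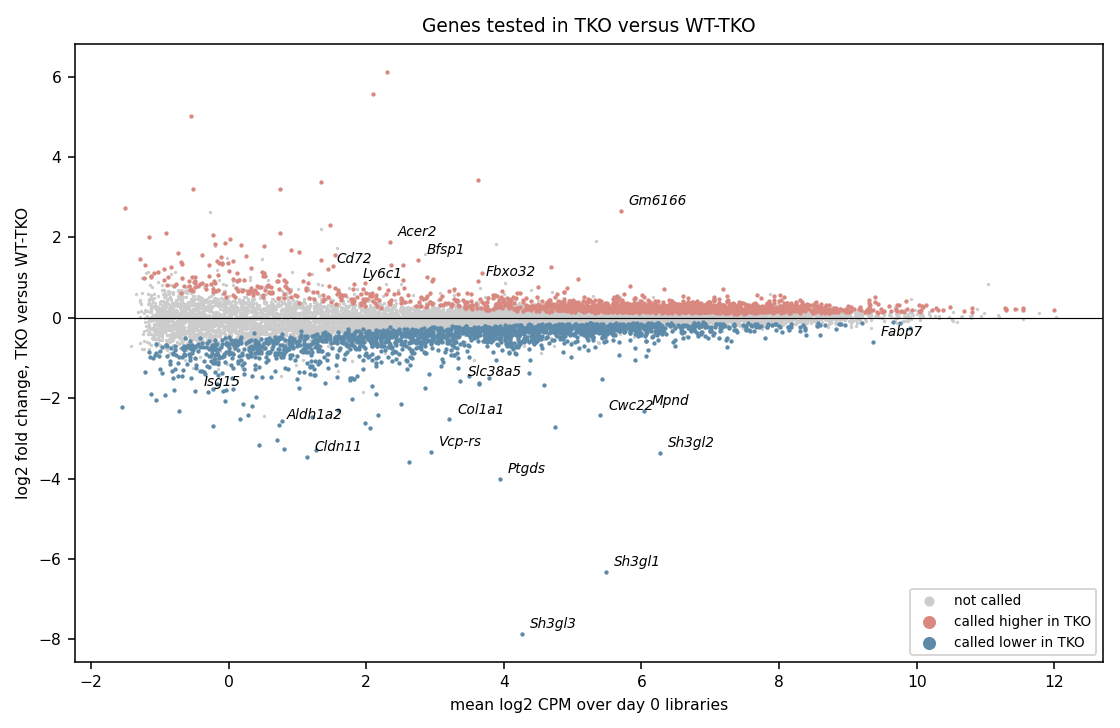
Log2 fold change of TKO over WT-TKO (y axis) against mean log2 CPM over the newborn libraries (x axis) for the 15715 genes tested, with 1704 genes called higher and 1891 called lower in colour. Sh3gl1, Sh3gl2 and Sh3gl3 lie far below the other genes of their abundance, and most called genes lie close to 0.

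Some genes set TKO apart from both the littermates and the wild types. The 10 protein-coding genes with the strongest evidence in both contrasts, outside the targeted loci, were 5 that fell and 5 that rose. Slc38a5, an amino acid transporter that carries glutamine, had 4.27, 5.07 and 6.22 CPM in TKO, 8.58, 10.5 and 13.9 CPM in KOWTKO and 10.4, 14.9 and 19.2 CPM in WT-TKO. No TKO library reached any library of either control group, and the log2 fold change was -1.58 ± 0.12 over WT-TKO and -1.08 ± 0.12 over KOWTKO (edgeR adjusted p = 1.45e-10 and 1.33e-06). Its level in KOWTKO was also below that in WT-TKO (-0.50 ± 0.12, edgeR adjusted p = 0.00412). Cybrd1, a ferric reductase of iron uptake, followed the same order, with 15.9, 22 and 24 CPM in TKO, 25.1, 35.2 and 37.8 CPM in KOWTKO and 38.6, 40.7 and 44.5 CPM in WT-TKO. Its groups did not overlap either (-0.97 ± 0.08 over WT-TKO and -0.66 ± 0.08 over KOWTKO, edgeR adjusted p = 2.21e-09 and 1.24e-05). Fabp7, the fatty-acid-binding protein of radial glia, had 388, 488 and 618 CPM in TKO, 645, 719 and 796 CPM in KOWTKO and 711, 750.5 and 828 CPM in WT-TKO. All TKO libraries were below all control libraries for Fabp7 (-0.60 ± 0.06 over WT-TKO and -0.53 ± 0.06 over KOWTKO, edgeR adjusted p = 3.49e-07 and 1.24e-05). Heyl, a Notch-induced repressor, fell by 0.61 ± 0.11 against WT-TKO and by 0.66 ± 0.11 against KOWTKO on the log2 scale, with 4.51 to 7.7 CPM in TKO, 6.72 to 10.5 CPM in KOWTKO and 6.94 to 10.1 CPM in WT-TKO, ranges that overlap. Lxn (latexin), an inhibitor of carboxypeptidases, fell by 0.37 ± 0.06 and 0.36 ± 0.06 in the same 2 contrasts, with no overlap.

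Hrk, which encodes a BH3-only protein that promotes neuronal apoptosis, was among the genes that rose over both control groups. It had 110.2, 117 and 145 CPM in TKO, 81.3, 87.4 and 90.5 CPM in KOWTKO and 75.8, 81.8 and 90.6 CPM in WT-TKO. The 9 TKO libraries lay above all 16 control libraries (0.55 ± 0.05 over WT-TKO and 0.47 ± 0.05 over KOWTKO, edgeR adjusted p = 1.58e-08 and 1.33e-06). Itpr3, an inositol trisphosphate receptor that releases calcium from the endoplasmic reticulum, had 5.93, 7.91 and 10.4 CPM in TKO, 3.75, 4.57 and 5.89 CPM in KOWTKO and 3.44, 3.98 and 5.06 CPM in WT-TKO, again without overlap (0.95 ± 0.11 over WT-TKO and 0.73 ± 0.11 over KOWTKO). Uvssa, which serves transcription-coupled DNA repair, rose by 0.53 on the log2 scale over WT-TKO and by 0.43 over KOWTKO, with 27.6 to 35.9 CPM in TKO, 20.4 to 26.4 CPM in KOWTKO and 19.4 to 25.6 CPM in WT-TKO. Ly6c1, a surface protein of brain endothelium and of some leukocytes, rose by 0.85 and 0.96, with 3.11, 4.89 and 6.67 CPM in TKO, 2.17, 2.44 and 3.25 CPM in KOWTKO and 1.9, 2.8 and 3.59 CPM in WT-TKO. Ly6c1 has a near-identical neighbour, Ly6c2, so its count is uncertain to that extent, and its groups overlapped. The fifth gene that rose was Fbxo32, described next. These 10 genes were selected for differing in both contrasts, so their agreement is not a finding.

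**Figure D3:**
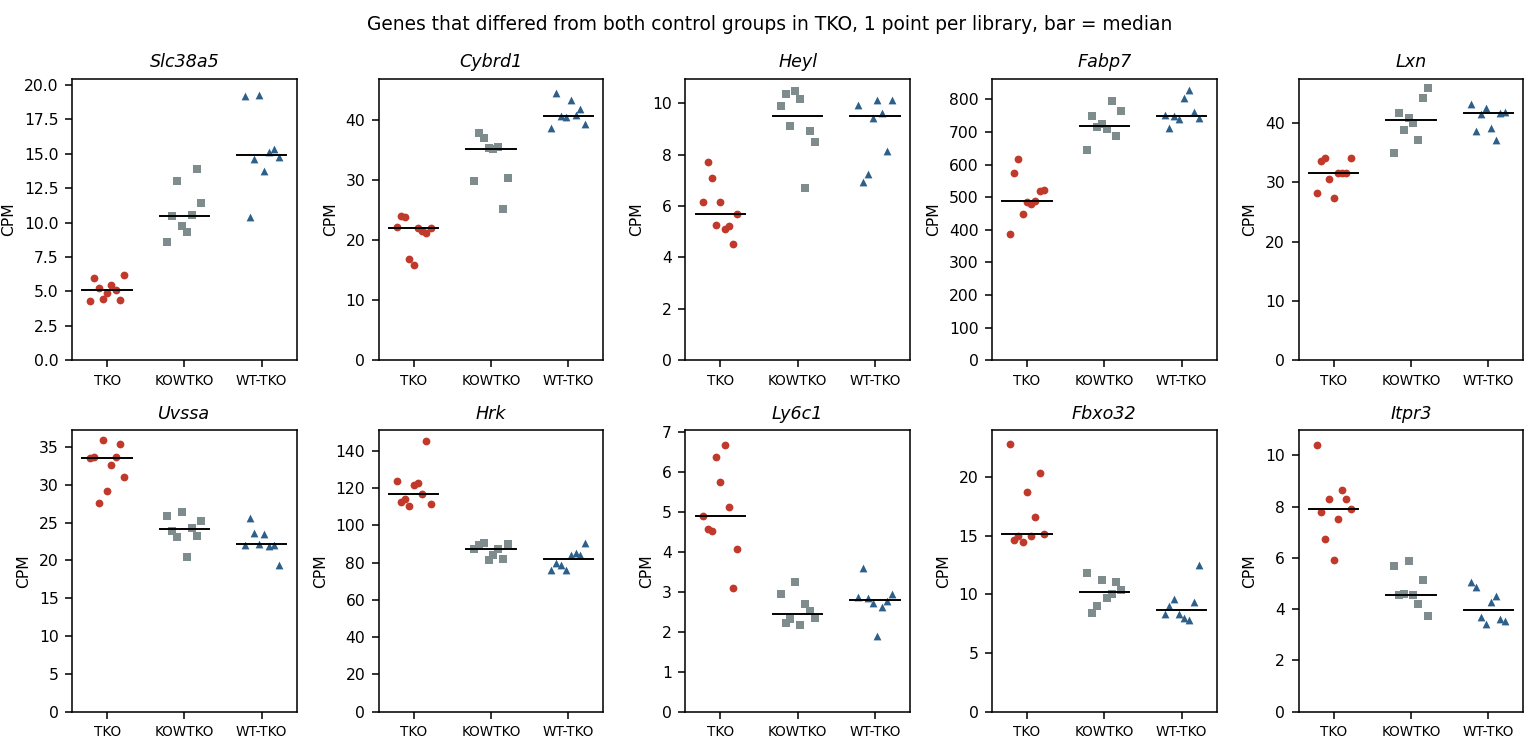
CPM of the 10 genes that differed most clearly from both control groups in TKO, with 1 point per library, a bar at the median and axes starting at 0. The upper row holds the 5 genes that fell, starting with Slc38a5, where the TKO points (4.27 to 6.22 CPM) lie below all KOWTKO and WT-TKO points, and the lower row the 5 that rose, with Heyl and Ly6c1 as the panels whose groups overlap.

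Fbxo32, the FoxO3-controlled ubiquitin ligase, was raised in TKO. It had 14.4, 15.1 and 22.8 CPM in TKO, 8.42, 10.2 and 11.8 CPM in KOWTKO and 7.77, 8.65 and 12.5 CPM in WT-TKO. The 9 TKO libraries lay above all libraries of both control groups, with log2 fold changes of 0.91 ± 0.10 over WT-TKO and 0.73 ± 0.10 over KOWTKO (edgeR adjusted p = 1.61e-06 and 1.55e-04), while KOWTKO over WT-TKO was 0.17 ± 0.11 (edgeR adjusted p = 0.259). Foxo3, the transcription factor itself, had 65.7, 73.3 and 84.5 CPM in TKO, 59.4, 63.1 and 73.2 CPM in KOWTKO and 56.7, 58.9 and 66.7 CPM in WT-TKO. Its groups overlapped by 1 TKO library against WT-TKO, and it rose by 0.30 over WT-TKO and by 0.20 over KOWTKO (edgeR adjusted p = 2.59e-04 and 0.0257). The authors' deposited table gives log2 fold changes of 0.91 for Fbxo32 and 0.31 for Foxo3 between TKO and wild types.

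Of 29 tested FoxO factors and targets, a list drawn up knowing what the study was about, 10 rose and 2 fell against WT-TKO, with a median of 0.15. Against KOWTKO 3 rose and 0 fell, and in KOWTKO against WT-TKO 3 rose and 0 fell. The 10 that rose also held Cdkn1a, the p21 cell-cycle inhibitor, at 16.1, 18.5 and 28.4 CPM in TKO, 11.3, 13.8 and 20.9 CPM in KOWTKO and 10.3, 11.5 and 15.4 CPM in WT-TKO, with no overlap between TKO and WT-TKO (0.67 ± 0.12, edgeR adjusted p = 4.79e-04). Cat (catalase), which breaks down hydrogen peroxide, went the other way at -0.24 ± 0.06, a call that was lost without WT-TKO replicates 1, 4, 7 and 8. The FoxO count was 6 higher without WT-TKO replicate 4, 11 higher and 1 lower without WT-TKO replicates 1, 4, 7 and 8, and 6 higher and 2 lower without replicates 5 and 6. In RefSeq's GRCm38.p6 promoters, taken as the 250 bases before a gene's start, the FoxO-binding letters GTAAACA on either strand were found for 3 of 24 listed genes with a window (12.5%), for 1 of the 8 with a window that rose, and for 2.69% of 11802 tested genes with a window.

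Genes of other parts of protein turnover were called in numbers that moved with the wild types used. Of 36 F-box and other ubiquitin ligase genes, 8 rose and 4 fell in TKO against WT-TKO, and 9 rose and 4 fell in KOWTKO against WT-TKO. In TKO 4 rose and 3 fell without WT-TKO replicates 5 and 6. Fbxl20, an F-box protein that targets the presynaptic protein RIM1, had 74, 87.4 and 95.9 CPM in TKO, 58.8, 64.5 and 69 CPM in KOWTKO and 64.9, 71.4 and 76.8 CPM in WT-TKO. It rose over both control groups, and its TKO and KOWTKO libraries did not overlap (0.27 ± 0.05 over WT-TKO and 0.41 ± 0.05 over KOWTKO, edgeR adjusted p = 6.28e-04 and 2.49e-05). Fbxo21, another F-box gene, rose over WT-TKO in TKO and in KOWTKO (0.23 ± 0.04 and 0.22 ± 0.04). Of 35 proteasome subunits 3 rose and 1 fell, and the number that rose was 0 or 1 without TKO replicate 1, 2, 3, 4, 8 or 9 or any of WT-TKO replicates 1 to 6, and 5 without WT-TKO replicate 7 or without replicates 1, 4, 7 and 8. It was 0 without replicates 5 and 6. The catalytic subunit Psmb5 fell (-0.53 ± 0.14), but not without WT-TKO replicates 1, 4, 7 and 8, and Psma6, a core subunit, rose (0.24 ± 0.08) with a call that 9 of 25 alternatives lost. Of 37 autophagy genes 4 rose and 1 fell, with 7 that rose under another scaling (RLE), 9 without WT-TKO replicate 8 and 7 without WT-TKO replicates 1, 4, 7 and 8. The one that fell was Tfeb, the master regulator of lysosomal genes, with 1.12, 1.51 and 1.89 CPM in TKO, 1.75, 2.23 and 2.89 CPM in KOWTKO and 2.17, 2.55 and 3.37 CPM in WT-TKO, below all WT-TKO libraries in 9 of 9 (-0.76 ± 0.12 over WT-TKO and -0.53 ± 0.12 over KOWTKO, edgeR adjusted p = 1.65e-04 and 0.0152). Uvrag (0.25 ± 0.07) and Ulk2 (0.19 ± 0.06), which act early in autophagosome formation, rose, the first not without WT-TKO replicates 5 and 6 and the other not without replicates 1, 4, 7 and 8. Of 17 p53 targets 3 rose, including Trp53i11 (0.33 ± 0.09), and 0 fell. Among all genes 10.8% rose and 12.0% fell in TKO against WT-TKO.

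**Figure D4:**
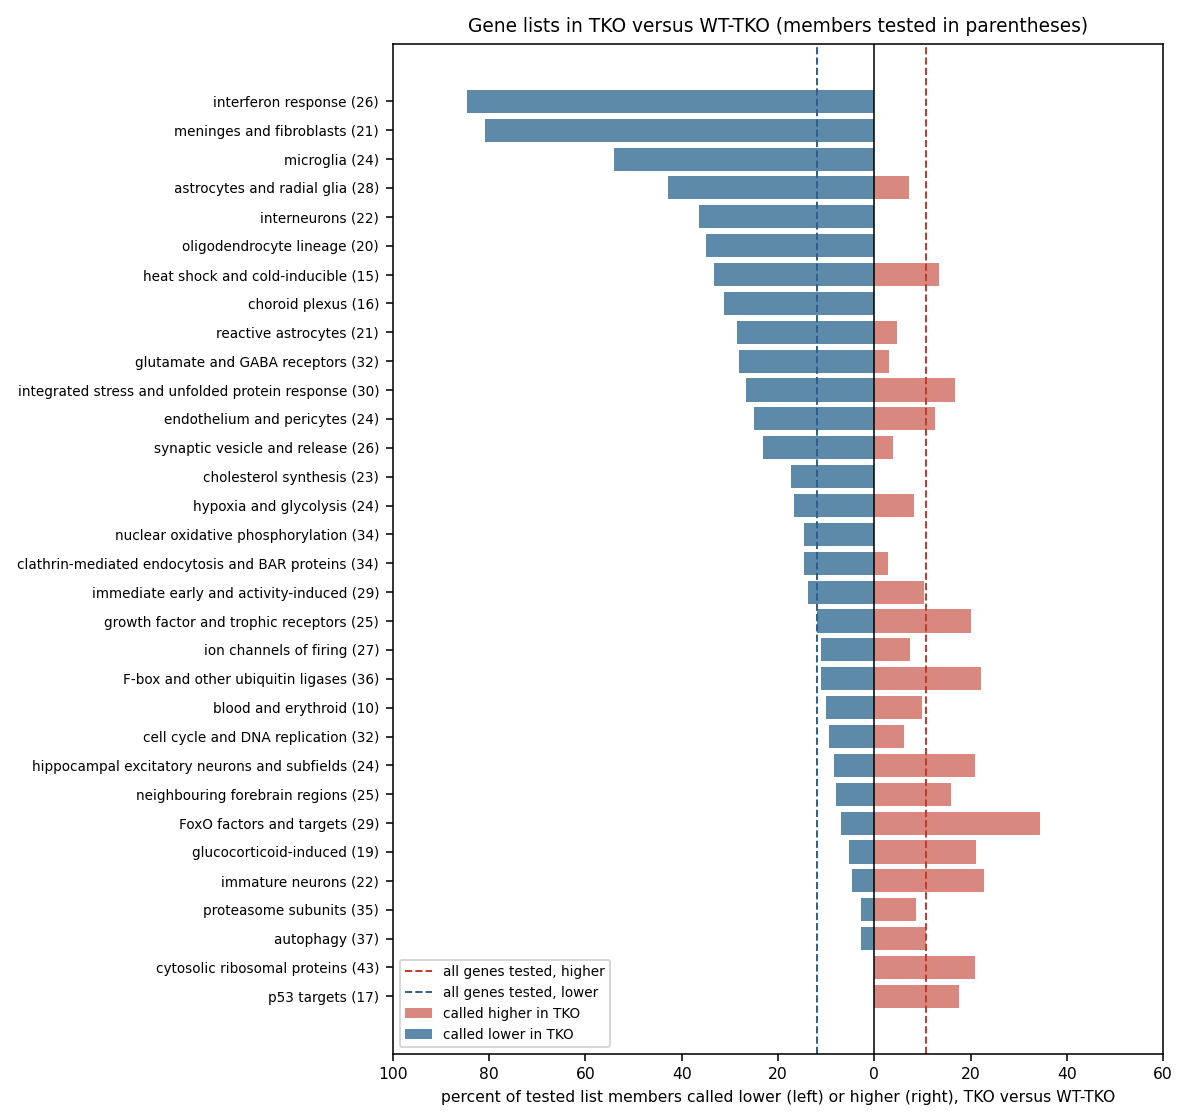
Percent of the tested members of 32 gene lists that were called lower (left) or higher (right) in TKO against WT-TKO, with the number of tested members in parentheses and dashed lines at the shares of all 15715 genes (12.0% lower and 10.8% higher). The endophilin and sex-linked lists are not drawn. The interferon, meningeal and microglial lists reach farthest to the left, and the FoxO list reaches farthest to the right.

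Interferon response genes were lower in TKO than in wild types almost throughout. Of 26 tested genes, 22 fell and 0 rose against WT-TKO, with a median log2 fold change of -0.95. B2m, the light chain of MHC class I molecules, had 11.3, 13.9 and 16.8 CPM in TKO, 11.7, 14.4 and 18.3 CPM in KOWTKO and 16.9, 25.6 and 38 CPM in WT-TKO. Isg15, a ubiquitin-like modifier made in response to type I interferon, was scarce, with 0.0676, 0.249 and 0.483 CPM in TKO, 0.238, 0.582 and 1.07 CPM in KOWTKO and 0.397, 1.09 and 1.97 CPM in WT-TKO. B2m libraries did not overlap between TKO and WT-TKO (-0.91 ± 0.13, edgeR adjusted p = 3.70e-05), and Isg15 did (-1.83 ± 0.33, edgeR adjusted p = 3.83e-04). Iigp1, an interferon-induced GTPase against intracellular parasites, had 0.222 to 0.70 CPM in TKO, 0.236 to 0.583 CPM in KOWTKO and 0.907 to 2.08 CPM in WT-TKO, without overlap of TKO and WT-TKO (-1.33 ± 0.20), and Ifi27, a small interferon-induced mitochondrial protein, fell by 1.17 ± 0.18 on the log2 scale. The littermates lay low as well. KOWTKO against WT-TKO had 16 that fell, with B2m at -0.85 ± 0.13, and TKO against KOWTKO had 0 called by edgeR, with a median of -0.24.

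The promoters of Isg15 and B2m are shown because both carry the interferon-stimulated response element, GAAANNGAAA on either strand, marked in capitals in the 250 bases before the gene's start (RefSeq, GRCm38.p6, read along the gene's own strand). The Isg15 window is chr4:156200819-156201068 on the minus strand and holds 3 overlapping matches, and the B2m window is chr2:122147437-122147686 on the plus strand and holds 1.
Isg15: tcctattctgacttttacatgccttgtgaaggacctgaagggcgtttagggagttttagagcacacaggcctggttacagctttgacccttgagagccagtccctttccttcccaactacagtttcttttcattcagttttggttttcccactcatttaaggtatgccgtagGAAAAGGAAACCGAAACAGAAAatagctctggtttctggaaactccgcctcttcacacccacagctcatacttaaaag
B2m: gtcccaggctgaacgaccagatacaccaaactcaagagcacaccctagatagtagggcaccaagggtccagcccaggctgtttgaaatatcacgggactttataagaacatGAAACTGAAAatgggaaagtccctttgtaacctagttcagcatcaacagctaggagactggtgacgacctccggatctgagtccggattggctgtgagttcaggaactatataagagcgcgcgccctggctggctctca
Of the 26 tested interferon genes, 20 had a promoter window and 7 of these held the motif (35.0%), as did 6 of the 16 with a window that fell (37.5%) and 351 of 11802 tested genes with a window (2.97%). A match is a description of the letters and says nothing of whether the site was used here.

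Microglia and the cells of the coverings and fluid spaces of the brain were marked by lists of their own, and members of these lists fell too. In bulk tissue, fewer cells of a type and less RNA per cell cannot be told apart. Of 24 microglial genes 13 fell and 0 rose against WT-TKO (median -0.36), and 18 fell in KOWTKO against WT-TKO. Their summed level was 168 to 208 CPM in TKO, 149.7 to 187 CPM in KOWTKO and 188 to 315 CPM in WT-TKO. Itgam, the CD11b integrin chain, had 1.83, 2.78 and 3.46 CPM in TKO, 2.33, 3.76 and 4.22 CPM in KOWTKO and 3.46, 4.71 and 8.62 CPM in WT-TKO, with 9 of 9 TKO libraries below all WT-TKO libraries (-0.92 ± 0.17, edgeR adjusted p = 4.44e-04). The purine receptor P2ry13 (-1.22 ± 0.23), the microglial surface protein Tmem119 (-1.24 ± 0.25) and the calcium-binding protein Aif1, or Iba1 (-1.43 ± 0.30), fell with overlapping groups, at WT-TKO medians of 3.0, 1.99 and 2.52 CPM. Aif1 was at 8.3 and 7.66 CPM in WT-TKO replicates 5 and 6, and its value without them was -0.67 (edgeR adjusted p = 0.0204).

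Of 21 genes of meninges and fibroblasts 17 fell and 0 rose (median -1.04), and 8 fell in KOWTKO against WT-TKO. The summed level was 246 to 468 CPM in TKO, 279 to 517 CPM in KOWTKO and 347 to 815 CPM in WT-TKO. Aldh1a2, the retinoic-acid-synthesizing enzyme of meninges, was at 0 in TKO replicate 4, with 0, 0.336 and 1.53 CPM in TKO, 0.0903, 0.659 and 1.61 CPM in KOWTKO and 0.552, 3.14 and 9.78 CPM in WT-TKO (-2.66 ± 0.61, edgeR adjusted p = 0.00356). The Aldh1a2 groups overlapped, with WT-TKO replicate 1 the highest. Islr, a secreted leucine-rich-repeat protein of fibroblasts, fell by 0.92 ± 0.16 on the log2 scale. Of 16 choroid plexus genes 5 fell in TKO and 12 in KOWTKO against WT-TKO. The number in TKO was 2 without WT-TKO replicate 7 and 3 without TKO replicate 1, 5, 6 or 9. The choroid list had summed levels of 149 to 337 CPM in TKO, 159.8 to 204 CPM in KOWTKO and 196 to 1407 CPM in WT-TKO. WT-TKO replicate 8 was the highest for the next pair of genes. Kl (klotho), a hormone co-receptor of choroid plexus, had 0.059 to 0.83 CPM in TKO, 0.13 to 0.888 CPM in KOWTKO and 0.598 to 5.44 CPM in WT-TKO, and Enpp2 (autotaxin), which makes lysophosphatidic acid, fell by 0.81 ± 0.22 on the log2 scale, or by 0.44 without that library, and was not called without WT-TKO replicates 1, 4, 7 and 8 (edgeR adjusted p = 0.192). Of 20 oligodendrocyte genes 7 fell and 0 rose (median -0.51), and in KOWTKO against WT-TKO 7 fell and 0 rose as well (median -0.475). Against KOWTKO 0 of these genes rose or fell in TKO. Their summed level was 230.2 to 343 CPM in TKO, 242 to 336 CPM in KOWTKO and 274 to 1179 CPM in WT-TKO. Gpr17, a receptor of committed oligodendrocyte precursors, had 4.83, 6.49 and 11.4 CPM in TKO, 4.47, 7.97 and 10.1 CPM in KOWTKO and 6.73, 14.3 and 15.8 CPM in WT-TKO (-0.93 ± 0.18, edgeR adjusted p = 9.13e-04), and the myelin claudin Cldn11 was at -3.46 ± 0.72, or at -2.07 without WT-TKO replicate 8 (34.8 CPM, against a WT-TKO median of 1.39 CPM). Without WT-TKO replicates 1, 4, 7 and 8 Cldn11 measured -0.88 and was not called (edgeR adjusted p = 0.111).

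**Figure D5:**
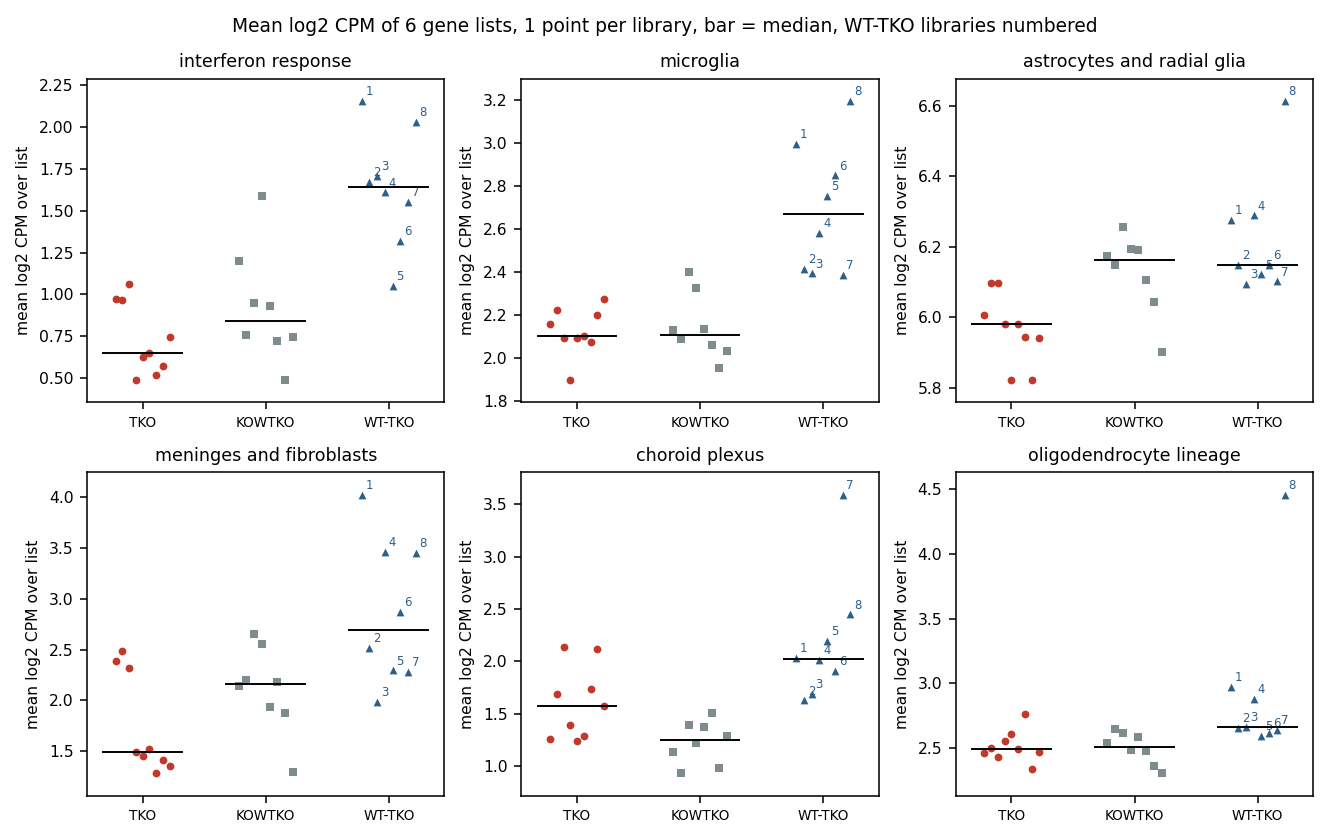
Mean log2 CPM over the members of 6 gene lists, with 1 point per library in TKO (n = 9), KOWTKO (n = 8) and WT-TKO (n = 8), a bar at the median and WT-TKO libraries labelled by replicate. Replicate 8 tops the oligodendrocyte panel at 4.46 and the astrocyte panel at 6.61, replicate 7 tops the choroid panel at 3.59, and replicate 1 tops the meningeal panel at 4.03, while the TKO libraries span 1.28 to 2.49 in the meningeal panel.

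These counts were taken again without WT-TKO replicates 1, 4, 7 and 8, the libraries highest in meningeal, choroid plexus or myelin genes. The genes that fell then numbered 12 of 26 interferon genes (median -0.66), 8 of 24 microglial genes (-0.29), 3 of 21 meningeal genes (-0.44), 2 of the 17 choroid plexus genes then tested (-0.18) and 1 of the 21 oligodendrocyte genes then tested (-0.06), with 4 wild types left. Without WT-TKO replicates 5 and 6 they numbered 21 interferon, 11 microglial, 17 meningeal, 8 of 17 choroid plexus and 10 of 21 oligodendrocyte genes. Counts of all genes called lower in TKO against WT-TKO moved as well. They were 1891 with all libraries, 1328 without WT-TKO replicates 1, 4, 7 and 8, and 1703 without replicates 5 and 6. In KOWTKO against WT-TKO, without replicates 1, 4, 7 and 8, the genes that fell numbered 8 interferon, 14 microglial, 0 meningeal, 6 choroid plexus and 2 oligodendrocyte genes. The part of meningeal, choroid plexus and myelin RNA in the interferon and microglial results was not tested.

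Vessel and blood genes gave mixed counts. Of 24 endothelial and pericyte genes 3 rose and 6 fell, and of 10 blood genes 1 rose and 1 fell. The shares of all genes were 10.8% higher and 12.0% lower. Pltp, a phospholipid transfer protein, had 8.26, 12.1 and 16.4 CPM in TKO, 11.7, 16.3 and 19.5 CPM in KOWTKO and 16.5, 21.4 and 29.7 CPM in WT-TKO, with no overlap between TKO and WT-TKO (-0.85 ± 0.12 over WT-TKO and -0.40 ± 0.12 over KOWTKO, edgeR adjusted p = 2.03e-05 and 0.0413). Egfl7, an endothelial secreted factor, fell by 0.45 ± 0.10 on the log2 scale, though not without WT-TKO replicates 1, 4, 7 and 8, while Ly6c1 rose, as given above. Without those 4 libraries 2 vessel genes rose and 1 fell. The blood count was 0 higher and 2 lower without WT-TKO replicates 5 and 6.

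Radial glia and astrocyte genes fell in TKO more often than they rose, against wild types and against littermates. Of 28 such genes, 12 fell and 2 rose against WT-TKO, and 8 fell and 0 rose against KOWTKO, where 2.68% of all genes fell. KOWTKO against WT-TKO had 5 that fell and 3 that rose. The summed level was 3765 to 4602 CPM in TKO, 4353 to 5135 CPM in KOWTKO and 4620.0 to 5591 CPM in WT-TKO. Beside Fabp7, Hes5, a Notch effector that keeps neural progenitors undifferentiated, had 8.67, 10.6 and 13.5 CPM in TKO, 8.03, 14.1 and 16.1 CPM in KOWTKO and 13.5, 17.1 and 19.9 CPM in WT-TKO. It fell against WT-TKO (-0.69 ± 0.12, edgeR adjusted p = 2.54e-04), with 9 of 9 TKO libraries below all WT-TKO libraries, and measured -0.34 ± 0.12 against KOWTKO (edgeR adjusted p = 0.0823). Bcan (brevican), a proteoglycan of the perineuronal matrix, had 84.5, 116 and 145 CPM in TKO, 112, 149 and 168 CPM in KOWTKO and 139, 163 and 179.9 CPM in WT-TKO, overlapped, and fell in both contrasts (-0.50 ± 0.09 and -0.38 ± 0.09). Hopx, a radial glia and stem cell gene, fell by 0.48 ± 0.08 on the log2 scale against WT-TKO. Without WT-TKO replicates 1, 4, 7 and 8 the list had 8 that fell and 2 that rose, and without replicates 5 and 6 it had 13 and 0. The number that rose was also 0 without TKO replicate 2 or 3 or WT-TKO replicate 1, 5 or 6.

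Genes that astrocytes switch on in injury gave few rises. Of 21 reactive astrocyte genes 1 rose and 6 fell, the second count being 2 or 3 without TKO replicate 1, 4, 6, 8 or 9 or WT-TKO replicate 1, 4 or 8. Gfap, the astrocyte filament gene, had 84.2, 102 and 144 CPM in TKO, 109.8, 126 and 157 CPM in KOWTKO and 125, 145 and 176 CPM in WT-TKO, with 8 of 9 TKO libraries below all WT-TKO libraries, and fell by 0.51 ± 0.09 on the log2 scale (edgeR adjusted p = 5.05e-04). Emp1, a membrane protein of the PMP22 family, was the one that rose, with 26.4, 36.4 and 43.9 CPM in TKO, 24.7, 31.4 and 40.7 CPM in KOWTKO and 18.2, 20.9 and 25.7 CPM in WT-TKO (0.73 ± 0.11). TKO and WT-TKO did not overlap for Emp1, and KOWTKO rose over WT-TKO by 0.60. Of 32 cell cycle genes 2 rose and 3 fell, which is a smaller share than that of all genes, and 0 rose and 1 fell without WT-TKO replicates 1, 4, 7 and 8. Mcm6, a subunit of the replicative helicase, was among those that fell, with 29.7, 41.4 and 51 CPM in TKO, 40.1, 50.3 and 67.2 CPM in KOWTKO and 55.4, 62.8 and 65.3 CPM in WT-TKO, without overlap against WT-TKO (-0.61 ± 0.11 over WT-TKO and -0.39 ± 0.11 over KOWTKO, edgeR adjusted p = 3.32e-04 and 0.0309), and Cdc6, which loads that helicase, was at -0.46 ± 0.12 over WT-TKO, a call lost without WT-TKO replicates 1, 4, 7 and 8.

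Inhibitory neuron genes that passed the test fell in TKO. Of 22 interneuron genes 8 fell and 0 rose against WT-TKO, 4 fell against KOWTKO, and KOWTKO against WT-TKO had 2 that fell and 3 that rose. The shares of all genes that fell in these 3 contrasts were 12.0%, 2.68% and 10.5%. Npy, the neuropeptide Y gene, had 10.4, 13.9 and 16.5 CPM in TKO, 16, 18.9 and 24.4 CPM in KOWTKO and 17.3, 23.2 and 28.1 CPM in WT-TKO. Its TKO libraries lay below all WT-TKO libraries (-0.71 ± 0.10 over WT-TKO and -0.50 ± 0.10 over KOWTKO, edgeR adjusted p = 3.70e-05 and 0.00667). Sst (somatostatin) had 18.1, 23.4 and 35.2 CPM in TKO, 23.6, 31.4 and 35.6 CPM in KOWTKO and 31, 38.9 and 53.8 CPM in WT-TKO, overlapped between groups, fell against WT-TKO (-0.66 ± 0.12) and measured -0.33 ± 0.12 against KOWTKO (edgeR adjusted p = 0.0942). Maf, a transcription factor of interneurons born in the medial ganglionic eminence, fell against both (-0.27 ± 0.05 and -0.29 ± 0.05), and Slc32a1, the vesicular GABA transporter, fell against WT-TKO (-0.45 ± 0.11). The interneuron count was 9 without WT-TKO replicates 1, 4, 7 and 8, 5 without WT-TKO replicates 5 and 6, and 5 without TKO replicate 3 or 8 or WT-TKO replicate 5.

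Receptor and scaffold genes of synapses fell more often than they rose. Of 32 glutamate and GABA receptor genes with their scaffolds, 9 fell and 1 rose against WT-TKO, and 4 fell and 0 rose against KOWTKO. Among all genes 12.0% fell in the first contrast and 2.68% in the second. Grik1, a kainate receptor subunit found in interneurons, had 17.2, 19.4 and 22.1 CPM in TKO, 20.4, 26.3 and 31.1 CPM in KOWTKO and 22.5, 28.1 and 32.6 CPM in WT-TKO, with 9 of 9 TKO libraries below all WT-TKO libraries (-0.51 ± 0.08 over WT-TKO and -0.41 ± 0.08 over KOWTKO, edgeR adjusted p = 1.65e-04 and 0.0066). Grm7, a presynaptic metabotropic glutamate receptor, fell by 0.57 ± 0.10 on the log2 scale. Shank3, the postsynaptic scaffold, had 51 to 69.5 CPM in TKO, 66.7 to 119 CPM in KOWTKO and 67.4 to 96.4 CPM in WT-TKO, and fell against KOWTKO (-0.51 ± 0.10) and WT-TKO (-0.36 ± 0.10) with overlapping groups, the second call being lost without WT-TKO replicates 1, 4, 7 and 8. Without WT-TKO replicates 1, 4, 7 and 8 the count was 6 lower and 2 higher, and without replicates 5 and 6 it was 5 lower and 1 higher. The number that fell was 4 without WT-TKO replicate 6, and 5 without TKO replicate 1, 2 or 8 or WT-TKO replicate 1 or 4.

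Genes of the machinery in which endophilin works were called at shares not far from the 22.9% of all genes. Of 34 genes of clathrin-mediated endocytosis and BAR proteins, 5 fell and 1 rose (17.65% called), with a median log2 fold change of -0.03. Over all genes 12.0% fell and 10.8% rose. Against KOWTKO 1 fell, and that was Snap91 (AP180), which assembles clathrin coats at synapses (-0.22 ± 0.06 over WT-TKO, not called without WT-TKO replicates 5 and 6, and -0.21 ± 0.06 over KOWTKO). Pacsin2, a BAR-domain protein that binds dynamin, had 21, 22.5 and 28.4 CPM in TKO, 21.4, 26.4 and 30.7 CPM in KOWTKO and 27.7, 28.1 and 34.1 CPM in WT-TKO (-0.31 ± 0.07, edgeR adjusted p = 0.00311), with 8 of 9 TKO libraries below all WT-TKO libraries. Its brain-specific relative Pacsin1 (-0.47 ± 0.12) and the sorting nexin Snx9 (-0.34 ± 0.08), another BAR-domain partner of dynamin, fell as well. Of 26 synaptic vesicle and release genes 6 fell and 1 rose (26.9% called), or 5 rose without WT-TKO replicate 8. Slc17a7, the vesicular glutamate transporter VGLUT1, had 95.4, 121 and 144 CPM in TKO, 122, 146 and 185 CPM in KOWTKO and 137, 163 and 319.9 CPM in WT-TKO (-0.56 ± 0.13, edgeR adjusted p = 0.00298), with overlapping groups and WT-TKO replicate 8 the highest. The release genes Stx1a (-0.26 ± 0.06), Syn2 (-0.31 ± 0.07) and Rph3a (-0.32 ± 0.08), for syntaxin, synapsin and rabphilin, fell.

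Genes of young neurons rose more often than they fell. Of 22 immature neuron genes 5 rose and 1 fell in TKO against WT-TKO, and 11 rose and 0 fell in KOWTKO against WT-TKO. The shares of all genes that rose in these contrasts were 10.8% and 10.5%. Dcx (doublecortin), a microtubule-binding protein of migrating neurons, had 2074, 2549 and 2953 CPM in TKO, 2384, 2780.0 and 2918 CPM in KOWTKO and 1721, 2200.0 and 2408 CPM in WT-TKO (0.25 ± 0.07 in TKO and 0.35 ± 0.07 in KOWTKO). Its groups overlapped, and the call in TKO was lost without WT-TKO replicates 1, 4, 7 and 8. Sox4, a transcription factor of differentiating neurons, rose by 0.41 in TKO and 0.49 in KOWTKO. Of 24 excitatory neuron and subfield genes 5 rose and 2 fell, or 4 without WT-TKO replicates 1, 4, 7 and 8. Lmo3, a LIM-only transcription cofactor (0.29 ± 0.05), and Mpped1, a metallophosphoesterase-domain gene (0.27 ± 0.06), rose, and Wfs1, a marker of CA1 pyramidal cells, fell by 0.70 ± 0.17 on the log2 scale. Genes of neighbouring forebrain regions gave 4 of 25 that rose, the Groucho-type co-repressor Tle4 (0.33 ± 0.05) among them, and 2 that fell, with the opioid peptide gene Penk at 1.6 to 4.29 CPM in TKO, 1.72 to 3.64 CPM in KOWTKO and 2.54 to 38.5 CPM in WT-TKO. The upper end of Penk in WT-TKO was replicate 8, and its log2 fold change of -1.71 ± 0.43 was -0.72 without that library, while 7 genes of the list rose without it. The number that fell was 4 without TKO replicate 5 or WT-TKO replicate 7, and 1 without WT-TKO replicates 1, 4, 7 and 8.

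Activity genes, firing channels and growth factor receptors had calls in both directions, which changed with the wild types used. Of 29 activity-induced genes 3 rose and 4 fell, of 27 ion channel genes 2 rose and 3 fell, and of 25 growth factor and trophic receptors 5 rose and 3 fell. Without WT-TKO replicates 1, 4, 7 and 8 the activity list had 5 higher and 2 lower, the channels 1 each way, and the receptors 0 higher and 3 lower. Without replicates 5 and 6 the activity list had 1 higher and 4 lower and the channels again 1 each way. Bdnf, the neurotrophin, had 6.76, 8.18 and 10.9 CPM in TKO, 6.99, 7.97 and 9.36 CPM in KOWTKO and 7.98, 10.3 and 12.5 CPM in WT-TKO (-0.30 ± 0.10, edgeR adjusted p = 0.0243), a call that was lost without WT-TKO replicate 3. That library also took the number of activity genes that fell to 2, and 1 rose without TKO replicate 8 or WT-TKO replicate 5 or 6. Of the channels 1 fell without TKO replicate 1, 2, 3 or 8 or WT-TKO replicate 5, 6 or 8, and 4 rose without TKO replicate 8 or WT-TKO replicate 8. Pcsk1, a prohormone convertase, and Egr3, an activity-induced transcription factor, fell by 0.62 ± 0.16 and 0.73 ± 0.20 on the log2 scale, Egr3 not without WT-TKO replicates 1, 4, 7 and 8. The potassium channel gene Kcna6 fell (-0.36 ± 0.08). Among the growth factor receptors, Egfr rose (0.29 ± 0.07), Ntrk3, the receptor of neurotrophin-3, rose (0.22 ± 0.06), and Fgfr3, which is also a glial marker, fell (-0.25 ± 0.07), with Egfr and Ntrk3 not called without WT-TKO replicates 1, 4, 7 and 8, and the KOWTKO values over WT-TKO were 0.30 ± 0.07, 0.24 ± 0.06 and -0.32 ± 0.07.

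Stress response genes split. Of 30 genes of the unfolded protein and integrated stress responses 5 rose and 8 fell against WT-TKO, and 2 rose and 7 fell against KOWTKO. Among all genes 10.8% rose and 12.0% fell in the first contrast, and 2.41% rose and 2.68% fell in the second. Against WT-TKO 8 rose and 6 fell without WT-TKO replicates 1, 4, 7 and 8. In KOWTKO against WT-TKO 0 rose and 1 fell. The members that fell against WT-TKO were Xbp1 and the endoplasmic reticulum chaperones or cofactors Hspa5, Hsp90b1, Sdf2l1, Pdia4, Calr, Manf and Creld2, and those that rose were Asns, Slc3a2, Slc7a5, Gars and Herpud1, names listed after their values were seen. Calr (calreticulin) had 230.2, 316 and 469.8 CPM in TKO, 358, 441 and 470.5 CPM in KOWTKO and 386, 429 and 489 CPM in WT-TKO (-0.44 ± 0.09 over WT-TKO and -0.41 ± 0.09 over KOWTKO, edgeR adjusted p = 0.00185 and 0.014). Of the TKO libraries 8 lay below all WT-TKO libraries, and replicate 3 was the exception. Creld2, an endoplasmic reticulum protein of disulfide exchange, fell by 0.35 ± 0.08 and 0.25 ± 0.08 in those contrasts, and Xbp1, the transcription factor of the unfolded protein response, fell by 0.40 ± 0.08 against WT-TKO. Slc7a5, the large neutral amino acid transporter LAT1, had 262, 322 and 366 CPM in TKO, 203, 246 and 273 CPM in KOWTKO and 182, 192 and 282 CPM in WT-TKO and rose in both contrasts (0.57 ± 0.09 and 0.35 ± 0.09, edgeR adjusted p = 1.28e-04 and 0.0229), with 6 of 9 TKO libraries above all WT-TKO libraries.

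Of 15 heat shock and cold-inducible genes 2 rose, or 4 without TKO replicate 7, and 5 fell. Among all genes 10.8% rose and 12.0% fell. Hsph1, a heat shock chaperone of the Hsp110 class, was below all KOWTKO libraries in every TKO library, with 148, 172 and 196 CPM in TKO, 201, 217 and 230.2 CPM in KOWTKO and 188, 199 and 214 CPM in WT-TKO (-0.32 ± 0.05 over KOWTKO and -0.21 ± 0.05 over WT-TKO, edgeR adjusted p = 1.95e-04 and 0.00232). Hspa1a, an inducible Hsp70 gene with a near-identical copy, stayed under 1 CPM and fell by 1.37 ± 0.28 on the log2 scale. Cirbp, the cold-inducible RNA-binding protein, rose (0.31 ± 0.06). Of 19 glucocorticoid-induced genes 4 rose and 1 fell, and the number that rose was 1 or 2 without TKO replicate 1 or 4 or WT-TKO replicate 1, 3, 4, 5 or 6, and 7 without WT-TKO replicate 8. It was 6 without WT-TKO replicates 1, 4, 7 and 8 and 1 without replicates 5 and 6. The gene that fell was Angptl4, an inhibitor of lipoprotein lipase, with 3.53, 5.36 and 7.11 CPM in TKO, 5.24, 8.82 and 11.3 CPM in KOWTKO and 5.47, 11.4 and 17.4 CPM in WT-TKO (-1.20 ± 0.20, edgeR adjusted p = 2.37e-04) and overlapping groups.

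In metabolism, 2 of 24 hypoxia and glycolysis genes rose and 4 fell, with 1 each way without WT-TKO replicates 1, 4, 7 and 8 and 4 that rose without WT-TKO replicate 8. Adm (adrenomedullin), a vasodilator peptide induced by low oxygen, had 0.70, 1.23 and 2.03 CPM in TKO, 0.488, 0.692 and 1.49 CPM in KOWTKO and 0.303, 0.499 and 0.832 CPM in WT-TKO (1.37 ± 0.26, edgeR adjusted p = 7.23e-04), with 8 of 9 TKO libraries above all WT-TKO libraries, and the glycolytic enzyme Pfkl fell (-0.35 ± 0.09). Gapdh was listed at only 6.49 to 9.66 CPM in TKO, 5.64 to 20.9 CPM in KOWTKO and 6.35 to 32.4 CPM in WT-TKO, and as a gene with many processed copies its count is uncertain. WT-TKO replicates 5 and 6 were the low end of Gapdh, and its -1.49 ± 0.30 was not called without the other 4 uneven libraries, replicates 1, 4, 7 and 8. Of 23 cholesterol synthesis genes 4 fell, with the sterol reductase Tm7sf2 at -0.48 ± 0.11 and phosphomevalonate kinase, Pmvk, at -0.32 ± 0.07, and of 34 nuclear genes of oxidative phosphorylation 5 fell, with the complex III subunit Cyc1 at -0.15 ± 0.04. These falls made up 17.4% and 14.7% of the 2 lists. Among all genes 12.0% fell and 10.8% rose. The Cyc1 call was lost without WT-TKO replicates 1, 4, 7 and 8, and the oxidative phosphorylation count was 2 without TKO replicate 1 and 3 without TKO replicate 2 or 8 or WT-TKO replicate 1 or 6. Without WT-TKO replicates 1, 4, 7 and 8 it was 1, and the cholesterol count was 2. Without replicates 5 and 6 the oxidative phosphorylation count was 3. Of 43 cytosolic ribosomal protein genes 9 rose and 0 fell, with Rpl22 at 364, 395 and 452 CPM in TKO, 328, 341 and 427 CPM in KOWTKO and 279.7, 308 and 402 CPM in WT-TKO (0.31 ± 0.06). That count rested on which wild types were used, with 18 higher without WT-TKO replicates 1, 4, 7 and 8 and 1 without replicates 5 and 6. It was 3 without WT-TKO replicate 3, 5 without TKO replicate 8 or 9 or WT-TKO replicate 5 or 6, and 14 without WT-TKO replicate 7. Car2, a carbonic anhydrase listed under blood but also made by glia and choroid plexus, fell by 1.05 ± 0.23 on the log2 scale, or by 0.62 without WT-TKO replicate 8, the highest.

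Several of the protein-coding genes with the largest falls outside the targeted loci had their highest level in WT-TKO replicate 1 or 8. Ptgds, the prostaglandin D synthase of meninges and choroid plexus, had 0.766, 2.13 and 4.67 CPM in TKO, 1.36, 2.66 and 4.92 CPM in KOWTKO and 1.56, 12.4 and 147 CPM in WT-TKO (-4.01 ± 0.77, edgeR adjusted p = 0.00108), and its call was lost without WT-TKO replicates 1, 4, 7 and 8. Cntnap1, an axonal protein of paranodes, had 0.84, 1.44 and 2.37 CPM in TKO, 1.07, 1.91 and 2.83 CPM in KOWTKO and 1.05, 3.27 and 56.2 CPM in WT-TKO (-2.60 ± 0.63), with WT-TKO replicate 8 the highest, and its value without that library was -0.96. Col1a1, the collagen I chain, had 0.875, 1.65 and 9.07 CPM in TKO, 0.632, 6.55 and 13.3 CPM in KOWTKO and 4.28, 16.2 and 54.5 CPM in WT-TKO (-2.53 ± 0.57), with WT-TKO replicate 1 the highest. Slc6a13, a GABA and taurine transporter of meninges, and Gpr37l1, an astrocyte receptor, fell by 2.03 ± 0.52 and 1.89 ± 0.44 on the log2 scale. Their highest libraries were WT-TKO replicates 1 and 8. Slc6a13 was not called without WT-TKO replicates 1, 4, 7 and 8, and Gpr37l1 was at -0.97 without replicate 8.

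Further large falls were found in 4 other genes. Cwc22, a splicing factor gene with copies in some mouse genomes, had 14.9, 18 and 22 CPM in TKO, 11.7, 13.2 and 31.7 CPM in KOWTKO and 11.6, 20.6 and 537 CPM in WT-TKO, where replicates 5 and 6 reached 537 and 112 CPM. Its -2.43 ± 0.65 became -0.85 and was not called without replicate 5 (edgeR adjusted p = 0.101), and was -0.02 without replicates 5 and 6. Ccl28, a mucosal chemokine, had 1.17, 1.71 and 11.7 CPM in TKO, 1.13, 1.42 and 2.12 CPM in KOWTKO and 6.91, 10.5 and 21.1 CPM in WT-TKO, with 8 of 9 TKO libraries below all wild types (-2.14 ± 0.38, edgeR adjusted p = 4.85e-04). TKO replicate 9 was the exception for Ccl28 at 11.7 CPM. Gm15446 had 0.539, 0.785 and 6.7 CPM in TKO, 0.431, 0.777 and 7.54 CPM in KOWTKO and 0.803, 12.3 and 15.4 CPM in WT-TKO (-2.40 ± 0.68), and Ndufs5, a complex I subunit, had 0.369, 5.48 and 7.37 CPM in TKO, 0.226, 6.77 and 14.1 CPM in KOWTKO and 7.85, 12.6 and 16.2 CPM in WT-TKO (-1.75 ± 0.62), a call that 14 of 25 alternatives lost although its TKO and WT-TKO libraries did not overlap. Ndufs5 was split within groups, at 0.369 to 0.56 CPM in TKO replicates 2, 3, 8 and 9 and 5.48 to 7.37 CPM in the others. KOWTKO replicates 3 and 8 had 0.488 and 0.226 CPM.

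For the largest rises the values of KOWTKO over WT-TKO are given beside those of TKO, since both use the same wild types. Gm6166, a pseudogene, had 59.9, 69.5 and 93.1 CPM in TKO, 58.6, 71.1 and 82.2 CPM in KOWTKO and 2.3, 2.55 and 34.9 CPM in WT-TKO (2.66 ± 0.50 over WT-TKO in TKO and 2.62 ± 0.51 in KOWTKO, edgeR adjusted p = 9.89e-04 and 0.00174). Zfp239, a zinc finger gene, had 35.5, 40.5 and 47.5 CPM in TKO, 28.5, 39.3 and 42.3 CPM in KOWTKO and 19.9, 21 and 24.9 CPM in WT-TKO, with 9 of 9 TKO libraries above all wild types (0.97 ± 0.08 in TKO and 0.81 ± 0.08 in KOWTKO, edgeR adjusted p = 8.32e-10 and 1.22e-07). Lrrc18, a leucine-rich-repeat gene, had 1.52, 2.7 and 4.0 CPM in TKO, 1.61, 3.62 and 4.44 CPM in KOWTKO and 0.756, 0.983 and 1.35 CPM in WT-TKO, also without overlap (1.43 ± 0.21 in TKO and 1.68 ± 0.21 in KOWTKO). Pla2g4e, a phospholipase A2, had 27.8, 29.7 and 44.9 CPM in TKO, 21.9, 26.9 and 30.5 CPM in KOWTKO and 6.73, 12.1 and 28.4 CPM in WT-TKO, and within the wild types replicates 1 to 4 had 7.58, 8.74, 6.73 and 7.5 CPM, below replicates 5 to 8. Bfsp1, a lens filament gene (1.45 ± 0.42), Piezo2, a mechanosensitive channel (1.30 ± 0.30), Cd72, a B-cell surface receptor (1.21 ± 0.31), Dynlt1b, a dynein light chain with near-identical copies (1.11 ± 0.26), Fam205c (1.29 ± 0.43) and the translation factor copy Eif3j2 (1.32 ± 0.45) rose over WT-TKO. Their values in KOWTKO over WT-TKO were 1.45 ± 0.43, 1.74 ± 0.31, 1.12 ± 0.32, 1.02 ± 0.26, 1.11 ± 0.44 and 1.45 ± 0.46, and their TKO against KOWTKO contrasts were not called. Among these, Bfsp1 and Piezo2 were not called over WT-TKO without WT-TKO replicates 1, 4, 7 and 8, Eif3j2 under 9 of 25 alternatives and Fam205c under 7. Aldh1a3, which makes retinoic acid, rose by 1.10 in TKO, with 1.4, 3.02 and 5.88 CPM in TKO, 1.22, 1.93 and 3.65 CPM in KOWTKO and 0.992, 1.25 and 2.61 CPM in WT-TKO, and measured 0.56 ± 0.29 in KOWTKO over WT-TKO (edgeR adjusted p = 0.165).

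Among the other transcripts not annotated as protein-coding, Emx2os, antisense to the cortical patterning gene Emx2, had 2.13, 4.29 and 6.87 CPM in TKO, 3.43, 4.9 and 9.18 CPM in KOWTKO and 8.16, 13 and 14.9 CPM in WT-TKO, with no overlap between TKO and WT-TKO (-1.41 ± 0.20, edgeR adjusted p = 2.91e-05). Vcp-rs (-3.34 ± 0.78), a Vcp-related pseudogene, reached 67.5 and 66.5 CPM in WT-TKO replicates 5 and 6, without which it was not called, and Ighm, the immunoglobulin mu chain, fell by 1.11 ± 0.21 on the log2 scale. Gm6768 (1.56 ± 0.34) and Gm11738 (1.02 ± 0.18) rose.

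The older animals gave a second comparison of a knockout with separate wild types that shares no library with this one. Of the genes tested, DKO against WT-DKO called 3698 (23.5%), and 1092 genes were called in the same direction at both ages, which is 30.4% of the TKO calls and 29.5% of the DKO calls. A further 132 were called in opposite directions. The difference between the 2 effects was called for 1600 genes (10.2%), with 759 above 0 (4.83%) and 841 below 0 (5.35%). Fbxo32, at 0.91 ± 0.10 in TKO against WT-TKO, was at 0.14 ± 0.11 in DKO against WT-DKO, and the difference of 0.77 ± 0.15 passed the test (edgeR adjusted p = 7.99e-04). For Foxo3 the difference was 0.39 ± 0.07 (edgeR adjusted p = 1.86e-04). Sh3gl3, which the DKO labels leave intact, differed by -7.72 ± 0.61, whereas Sh3gl1 and Sh3gl2 differed by -0.12 ± 0.23 and 0.07 ± 0.21 (edgeR adjusted p = 0.81 and 0.882). The number of deleted genes and the age differ together between TKO and DKO and cannot be told apart.

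The authors' deposited table of TKO against wild types lists 15454 genes, of which 4051 have an adjusted p under 0.05, 2018 higher and 2033 lower. Of these, 3463 were also called here, all with the same sign in both tables.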

How the data were processed

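Polyadenylated RNA of mouse hippocampus was sequenced from libraries of an unstranded kit, per the labels' protocols. Per the submitters' processing notes, the tools were CASAVA 1.8.2, STAR 2.3.0e and DESeq2 with the mm10 build. Which program counted the reads, and on which annotation, is not given in the sources used here. Whole-number read counts per Ensembl gene were deposited by the authors for all libraries, with a table of TKO against wild types with log2 fold changes and adjusted p-values. Gene names and positions came from GENCODE M21 by Ensembl ID, which matched 36602 of 38355 genes, and 158 more names came from the authors' table. Lines that name no gene (8.89% to 15.1% of reads without a feature in the newborn libraries) stayed out of all totals.

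The test was edgeR 4.0.16 under R 4.3.3 (filterByExpr, TMM scaling, robust quasi-likelihood fit, Benjamini-Hochberg adjustment over 15715 genes, called under 0.05), in 1 fit of the 25 newborn libraries. One fit of all 49 libraries gave the difference between ages. Standard errors are the log2 fold change over the root of the F statistic. The test was tried on simulated counts beforehand. Same-numbered libraries were not treated as pairs, and no 2 libraries of a group were so alike as to be repeat deposits of 1 library. The alternatives were RLE scaling, no filter, only the compared groups in the fit, a replicate block, a Y-linked covariate, DESeq2 1.42.0 and leaving out libraries. The share of counting error in the spread between libraries was not examined.

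The members, the gene lists and the tests were chosen with earlier results of these data known, so no list is independent evidence of its direction. Named were the targeted genes with Fbxo32 and Foxo3, the 10 largest called rises and falls among protein-coding genes averaging at least 1 log2 CPM and lying over 5 Mb from the targets, the 3 largest each way among other transcripts, the 10 with the strongest evidence in both contrasts, the 4 members of each list with the smallest p, and 1 neighbour of each target. Values of list members that were not called, and those of sex-linked genes, are left out, since only called members are described by value. No gene of the sex-linked list was called. Some genes that the rule selects are not reported here.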

Additional observations from a re-analysis of the deposited data

Results flagged for a closer look

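Single libraries that stood apart from the rest of their group (a gap to the next library that is large for the group's range) were found in 39 of 308 checks of a gene or list within TKO or WT-TKO (12.7%). The cut-off would flag about 1 in 20 groups of independent, normally distributed values. CPM of selected genes and means of overlapping lists are not such values, so that rate does not measure chance here. Most of the flagged libraries were the highest of the WT-TKO libraries. WT-TKO replicate 8 was the highest for Fbxo32 (12.5 CPM), Cntnap1 (56.2 CPM), Gpr37l1 (36.1 CPM), Zfp239 (24.9 CPM), Cldn11 (34.8 CPM), Kl (5.44 CPM) and Enpp2 (139 CPM). It was also the highest for the neuronal genes Slc17a7 (319.9 CPM), Pacsin1 (88.6 CPM), Pcsk1 (7.79 CPM), Kcna6 (57.1 CPM), Wfs1 (39.8 CPM) and Penk (38.5 CPM), and for Pacsin2 (34.1 CPM) and Car2 (61.8 CPM). In mean log2 CPM over gene lists the same library was the highest for astrocytes and radial glia (6.61), excitatory neurons and subfields (6.05), ion channels of firing (5.26), neighbouring forebrain regions (4.70), the oligodendrocyte lineage (4.46) and synaptic vesicle genes (7.44).

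WT-TKO replicate 1 was the highest for Col1a1 (54.5 CPM), Slc6a13 (20.7 CPM), Iigp1 (2.08 CPM) and Tfeb (3.37 CPM). WT-TKO replicate 7 was the highest for Aldh1a3 (2.61 CPM) and for the mean of the choroid plexus list (3.59, log2 CPM), and the lowest for Gpr17 (6.73 CPM) and Pfkl (92.9 CPM). WT-TKO replicate 5 was the highest for Cwc22 (537 CPM) and Piezo2 (4.45 CPM), and WT-TKO replicate 2 for Foxo3 (66.7 CPM). Among TKO libraries, replicate 9 was the highest for Ccl28 (11.7 CPM), replicate 8 for Hrk (145 CPM), replicate 5 for Slc32a1 (38.4 CPM), replicate 1 for Snx9 (7.72 CPM) and replicate 3 for Calr (469.8 CPM). TKO replicate 4 was the lowest for Eif3j2 (2.48 CPM) and the highest for the mean of the glucocorticoid-induced list (4.71, log2 CPM).

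The effect in TKO against WT-TKO differed from that in DKO against WT-DKO for 13 of 24 named genes tested for it with edgeR. The share over all genes was 10.2%. These 24 were the targeted genes, Fbxo32, Foxo3 and genes with the largest called changes in TKO against WT-TKO. The difference reuses those TKO and WT-TKO values, so a high number was built in, and Sh3gl3 was targeted only in TKO. The difference of log2 fold changes was positive for Fbxo32 (0.77), Foxo3 (0.39), Piezo2 (1.25), Aldh1a3 (1.70) and Zfp239 (0.95). It was negative for Sh3gl3 (-7.72), Ptgds (-4.91), Cntnap1 (-2.31), Col1a1 (-3.11), Cwc22 (-2.55), Ccl28 (-2.98), Slc6a13 (-2.55) and Gpr37l1 (-1.36).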

How the results depend on the processing

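The number of genes called in TKO against WT-TKO lay between 2818 and 4154 when single libraries were left out (1308 to 2052 higher, 1510 to 2102 lower), and was 3658 under RLE scaling, 3210 with no filter, 4159 by DESeq2, 2947 without WT-TKO replicates 1, 4, 7 and 8 and 3176 without replicates 5 and 6, these last choices made after seeing the data. Calls of at least 2-fold numbered 498 with no filter and 409 by DESeq2, and 201 to 281 without single libraries. TKO against KOWTKO gave 483 with no filter, 1294 by DESeq2 and 330 to 1444 without single libraries, and KOWTKO against WT-TKO gave 2508 to 3972. The cause of these shifts was not tested.

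With a replicate block over numbers 1 to 8 the counts were 3223, 552 and 2857. Same-numbered TKO and WT-TKO libraries did not deviate together (correlations of -0.258 to 0.1), and the correlations were mixed for TKO and KOWTKO (-0.112 to 0.223, with 2 of 8 pairs over 0.1) and for KOWTKO and WT-TKO (-0.151 to 0.198, with 3 of 8 pairs over 0.1 and 3 KOWTKO libraries closest to their own number). No contrast had every pair over 0.1, so the numbers were not taken to pair the samples. Under the block Cntnap1, Cwc22, Fam205c and Vcp-rs were not called (edgeR adjusted p = 0.0966, 0.222, 0.063 and 0.16).

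Without WT-TKO replicates 1, 4, 7 and 8 the sign of the age difference of Dynlt1b turned (0.33), and the age differences of Slc6a13, Gpr37l1 and Piezo2 were not called (edgeR adjusted p = 0.0531, 0.427 and 0.0979). Of the 121 named genes, 20 lost their call without WT-TKO replicates 1, 4, 7 and 8, 6 without replicates 5 and 6, 4 under the block, 3 with no filter, 3 by DESeq2, 2 (of 120) with only the compared groups in the fit, 1 with the Y-linked covariate, 0 under RLE scaling and 0 to 4 without single libraries. Values that kept their call but moved by over 1.5 times without replicates 1, 4, 7 and 8 were those of B2m (-0.59), Cntnap1 (-1.11), Gpr37l1 (-0.77), Kl (-1.14), Car2 (-0.52), Penk (-0.68), Uvrag (0.39), Cd72 (1.85) and Fam205c (2.13). Without replicates 5 and 6 they were those of Aif1 (-0.67), Bfsp1 (2.27), Fam205c (0.81) and Gm6166 (4.76). Beside the list counts given above, counts of 0 to 2 list members moved by 1 at most without single libraries. Genes under about 1 CPM, such as Aldh1a2 and Hspa1a, rest on few reads.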
